A study of Mus musculus with 10 samples.

Results

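Cytosolic ribosomal protein genes encode the proteins that, with ribosomal RNA, build the large and the small subunit of the ribosome in the cytoplasm. They were taken here as the protein-coding genes of the mouse build mm10 with symbols that start with Rpl or Rps followed by a digit, without the kinase genes (Rps6k), symbols with -ps and symbols that end in l. The rule found 77 genes among 21938 protein-coding genes, 45 named Rpl (large subunit) and 32 named Rps (small subunit). By their names, 3 of the 77 are not ribosomal proteins of the standard set, namely Rpl22l1, Rpl7l1 and the binding protein Rps19bp1, and Rps27rt is a copy of Rps27 made of 1 exon.

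The accessible sites came from ATAC-seq, in which the transposase Tn5 cuts open chromatin, on immortalized mouse embryo fibroblasts (iMEF). There were 5 groups of 2 replicates, control cells and cells after 30 min, 4 h, 8 h or 24 h of dTAG-13, and thus 10 libraries. Per the methods of the paper, controls for ATAC-seq received ethanol in place of dTAG-13. Cells of every group lacked exon 4 of the endogenous Ash2l alleles and lived on a lentiviral fusion of FKBP12 F36V, 2 HA tags and human ASH2L, in a single cell clone, so that controls carried the deletion and the fusion as well. ASH2L belongs to the enzyme complexes that place methyl groups on lysine 4 of histone H3, and dTAG-13 is a PROTAC that recruits the E3 ligase subunit Cereblon to the fusion. The list analysed pools all libraries into 153924 sites with a chromosome, a start and an end and holds no signal, so that groups were not compared, no replicate error exists and the depth is unknown. Intervals below are 95% Wilson intervals and cover the number of genes only. Sites were found within 1 kb of a start of 8 of 8 fibroblast marker genes, but also of 2 of 2 neuron, 2 of 2 epithelial, 1 of 3 leukocyte, 1 of 2 hepatocyte and 1 of 2 pluripotent cell markers, so that the presence of a site at a start did not separate cell types.

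Ribosomal protein genes are transcribed in every growing cell, and their products are needed in equal numbers. Their messenger RNAs typically begin with a C followed by further pyrimidines (C or T in the DNA), a 5′ terminal tract through which growth signals regulate translation. The genes have short first exons, many host small nucleolar RNA genes in their introns, and their promoters are rich in CpG and mostly lack a TATA box. The mammalian genome also carries many processed pseudogenes of these genes, which are inserted DNA copies of the messenger RNAs without the parental promoter.

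The sequences around the RefSeq start of 7 members are given first. They were chosen for their roles, except Rps27rt, which is shown because it had no site. Most results below are anchored instead at the main start in GENCODE, that of the best supported principal transcript. Among the genes shown, it equals the RefSeq start only in Rpl11 and Rps27rt. Each sequence covers 80 bases before to 20 bases from the start given by RefSeq for GRCm38.p6, and capitals mark the longest run of C and T. RefSeq starts were given for 58 of the 77 members. The genes shown are Rpl5 (chr5:107900448-107900547, plus strand) and Rpl11 (chr4:136053374-136053473, minus strand), which form a particle with 5S ribosomal RNA that binds Mdm2, then Rps6 (chr4:86857348-86857447, minus strand), the target of the S6 kinases, and Rps19 (chr7:24884512-24884611, plus strand), the gene most often mutated in Diamond-Blackfan anaemia. They are followed by Rps16 (chr7:28350609-28350708, plus strand), long used as a model promoter, Rpl38 (chr11:114668500-114668599, plus strand), studied for selective translation, and Rps27rt (chr9:114982720-114982819, minus strand).
Rpl5: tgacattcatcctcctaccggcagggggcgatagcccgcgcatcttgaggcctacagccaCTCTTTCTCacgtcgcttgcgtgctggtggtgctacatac
Rpl11: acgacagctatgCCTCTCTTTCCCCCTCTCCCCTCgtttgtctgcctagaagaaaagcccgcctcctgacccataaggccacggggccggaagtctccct
Rps6: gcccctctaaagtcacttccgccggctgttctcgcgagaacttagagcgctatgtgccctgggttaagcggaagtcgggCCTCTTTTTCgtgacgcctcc
Rps19: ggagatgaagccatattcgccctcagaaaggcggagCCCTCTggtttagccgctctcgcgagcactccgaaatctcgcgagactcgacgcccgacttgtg
Rps16: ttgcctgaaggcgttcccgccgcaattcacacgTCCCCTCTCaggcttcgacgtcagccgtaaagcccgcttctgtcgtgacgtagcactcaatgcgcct
Rpl38: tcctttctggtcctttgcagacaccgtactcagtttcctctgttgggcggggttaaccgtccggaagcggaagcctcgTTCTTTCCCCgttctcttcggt
Rps27rt: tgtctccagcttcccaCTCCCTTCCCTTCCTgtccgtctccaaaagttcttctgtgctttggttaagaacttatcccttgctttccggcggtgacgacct

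In Rps6 and Rpl38 the marked run of 10 bases lay across the RefSeq start, whereas in Rpl11 a run of 23 bases began 68 bases before it. At the main start used below, the run of C and T across the start was 0 bases in Rps6 and 2 in Rpl38. Of these 7 stretches, 6 lay wholly inside an accessible site and that of Rps27rt did not. Rps27rt also carried a run of C and T, of 15 bases, which began 64 bases before its start.

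To address whether these genes have accessible starts in the fibroblasts, sites within 1 kb of any annotated start were counted. A site was found at 76 of the 77 genes (98.7%, interval 93.0 to 99.8%), beside 70.8% of all protein-coding genes. At each of the 76 genes the site also covered the main start, which is the start of the best supported principal transcript, beside 59.7% of all protein-coding genes. All 45 Rpl genes and 31 of 32 Rps genes had a covered start. The gene without a site was Rps27rt (chr9:114982366-114982739, minus strand), which is 374 bp long.

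Other gene sets used by most cells had high shares as well. The main start was covered at 97.4% of 78 mitochondrial ribosomal protein genes (interval 91.1 to 99.3%), at 92.5% of 40 proteasome subunit genes and at 84.9% of 86 respiratory chain genes. Among the 10907 protein-coding genes that were CpG-rich (at least 1 window of 500 bp within 1 kb of the start with over 0.55 as the share of G and C and over 0.75 as the observed to expected CpG ratio), the share was 92.6%. It was 86.5% in the 1308 CpG-rich genes no longer than 5 kb, a length that includes most ribosomal protein genes. The interval of the members overlapped that of the mitochondrial ribosomal protein genes, and the share of the CpG-rich genes lay just below it.

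Ribosomal proteins that the symbol rule leaves out had a site too. The main start was covered at 7 of 7 such genes, among them the stalk genes Rplp0, Rplp1 and Rplp2 and Rpsa, Fau and Rack1, with a median width of 1005 bp. Likewise 14 of 14 genes of translation factors and associated proteins whose messenger RNAs start with pyrimidines, such as Eef1a1, Eef2, Pabpc1 and Tpt1, had a covered main start, with a median width of 1555.5 bp.

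**Figure D1:**
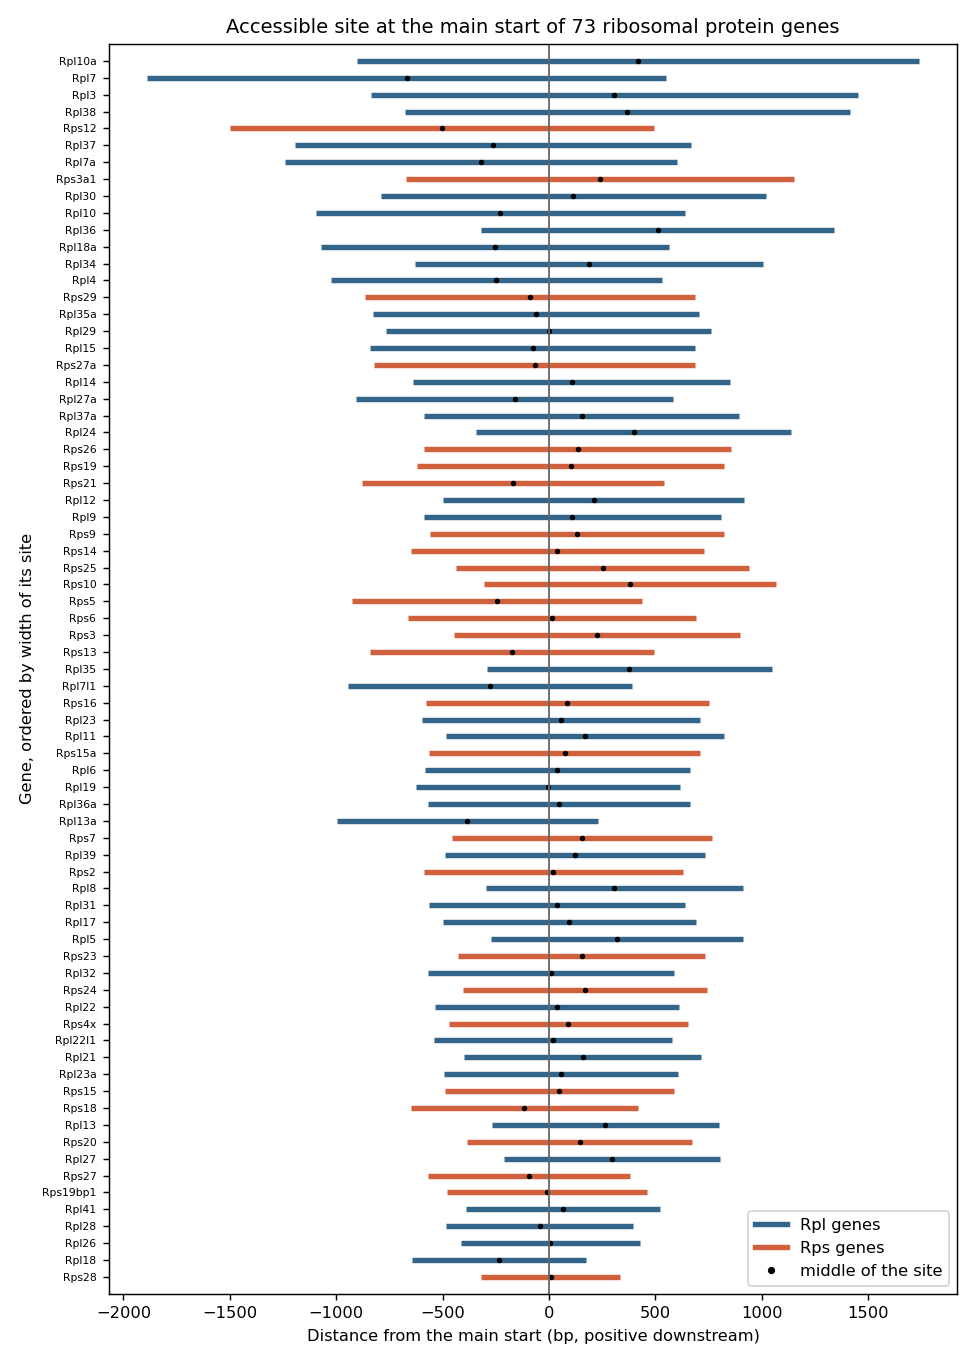
Each bar is the site at the main start of 1 of 73 of the 76 genes, drawn from its upstream to its downstream edge in bp with the start at 0 and ordered by width. Blue bars are Rpl genes, orange bars Rps genes and black points the middle of each site. Every bar crosses the start, and the widths run from 653 bp (Rps28) to 2643 bp (Rpl10a).

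The sites at these starts had much the same size. Their median width was 1338 bp (quartiles 1162 and 1528 bp, n = 76), and 65 of 76 (85.5%) were between 1000 and 2000 bp wide, beside 66.8% of the sites at main starts of all protein-coding genes and 73.9% of those at CpG-rich genes. The median was 1393 bp over all protein-coding genes and 1498 bp over CpG-rich genes, and 55 of the 76 members were narrower than the latter. The distance between the quartiles was 366 bp in the members and 587 bp in CpG-rich genes. Rpl genes (median 1337 bp, n = 45) and Rps genes (1346 bp, n = 31) differed by little against these quartiles. Mitochondrial ribosomal protein genes, with a median of 1265.5 bp, proteasome genes, with 1240 bp, and respiratory chain genes, with 1321 bp, were all slightly narrower, and their quartile distances of 371, 341 and 358 bp were close to that of the members.

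The widest sites were those of Rpl10a (chr17:28327664-28330306, 2643 bp), Rpl7 (chr1:16104114-16106549, 2436 bp) and Rpl3 (chr15:80081954-80084244, 2291 bp), which encode proteins of the large subunit. The site of Rpl10a took in 71.6% of the gene, and that of Rpl7 reached 1887 bp upstream over the start of Rdh10, a retinol dehydrogenase gene. The narrowest sites were those of Rps28 (chr17:33824228-33824880, 653 bp), Rpl18 (chr7:45714814-45715630, 817 bp) and Rpl26 (chr11:68901169-68902009, 841 bp). All 3 of these genes are among those mutated in Diamond-Blackfan anaemia, an inherited failure of red cell production. Over the 18 genes of that list, however, the median width was 1265.5 bp, with 10 genes below the median of all members, 7 above and Rpl35 equal to it.

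**Figure D2:**
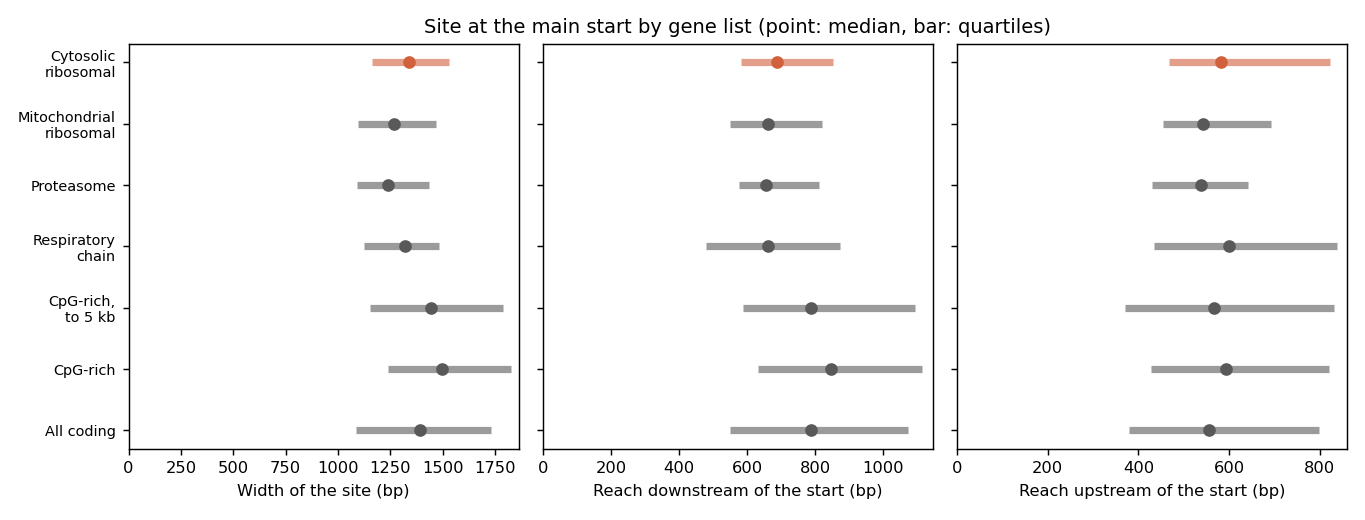
Points are medians and bars run from the lower to the upper quartile, in bp, for the width of the site at the main start and its reach downstream and upstream of the start, in 7 lists of genes. The ribosomal protein genes, at the top in orange, had a median reach of 689 bp downstream beside 846 bp in CpG-rich genes, and of 582.5 bp upstream beside 593 bp.

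The sites were close to centred on the start. The middle of the site lay a median of 56.5 bp downstream of the main start (quartiles -68.8 and 169.2 bp), beside 113 bp over all protein-coding genes and 128.5 bp over CpG-rich genes. It lay within 250 bp of the start in 55 of 76 members, a count made for the members only. It lay downstream of the start in 51 (67.1%), near the 66.8% of all protein-coding genes and the 69.9% of CpG-rich genes. The smaller offset came with a shorter reach into the gene, of 689 bp beside 846 bp in CpG-rich genes, while the reach upstream was 582.5 bp beside 593 bp. The sets most like the members had the same trait. The median offset was 43 bp in mitochondrial ribosomal protein genes, 30 bp in respiratory chain genes and 81 bp in proteasome genes, with median reaches downstream of 661, 662 and 655 bp. Except for Rpl18, which reached 173 bp downstream, every site reached at least 200 bp to both sides (75 of 76). This too was counted for the members only, so that neither count can be set against other genes.

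Farthest upstream lay the middles of the sites of Rpl7 (-669.5 bp from the start), Rps12 (-502.5 bp) and Rpl13a (-385 bp). Among those far downstream were the middles of Rpl36 (511 bp) and Rpl10a (417 bp). The site of Rpl36 (chr17:56613097-56614757) covered the whole gene of 828 bp, the only member for which this was so.

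The genes and their first exons were short, and the sites took in a sizeable part of the gene. The median gene length was 3243 bp, beside 17425 bp over all protein-coding genes, and the median first exon was 93 bp, beside 212 bp. The site reached into the first intron in 75 of 77 members (97.4%) and covered the start codon in 63 (81.8%, interval 71.8 to 88.8%). Over all protein-coding genes the shares were 53.9% and 40.3%. In CpG-rich genes no longer than 5 kb the shares were 59.1% and 75.1%, and their median first exon was 368.5 bp. In mitochondrial ribosomal protein genes the shares were 97.4% and 87.2%, in proteasome genes 90.0% and 82.5%, and in all CpG-rich genes 85.1% and 64.0%. The median part of the gene under the site was 23.6% in the members, 3.4% in all CpG-rich genes and 28.7% in CpG-rich genes no longer than 5 kb. How far gene length sets these values was not tested.

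CpG content was next compared, since the complexes that contain ASH2L are known to be recruited to unmethylated CpG islands. In the members, 73 of 77 starts (94.8%, interval 87.4 to 98.0%) were CpG-rich, beside 49.7% of all protein-coding genes, and 0 were CpG-poor, that is without any such window of a ratio over 0.48. CpG-poor starts made up 31.3% of all protein-coding genes and 0% of mitochondrial ribosomal protein and of proteasome genes. The share of CpG-rich starts was 92.3% in mitochondrial ribosomal protein genes, 83.7% in respiratory chain genes and 75.0% in proteasome genes. The 4 remaining members were intermediate, namely Rpl18, Rps27rt, Rpl10 and Rps4x. Of the 4 members on the X chromosome, Rpl10 and Rps4x were thus intermediate and Rpl36a and Rpl39 CpG-rich, and all 4 had a site, beside 49.8% of the 948 protein-coding genes on that chromosome.

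Members were rich in CpG without being extreme in GC. In 500 bp either side of the start, their median GC content was 56.9% and their median CpG ratio 0.81. CpG-rich genes, a class itself selected on GC, had a higher median GC content, of 61.3%, with a median ratio of 0.78. The sets most like the members had similar GC content. Its median was 55.8% in mitochondrial ribosomal protein and in proteasome genes and 56.5% in respiratory chain genes, with median ratios of 0.73, 0.74 and 0.71. In CpG-rich genes no longer than 5 kb it was 59.8%. Within the members, the CpG ratio ran from 0.41 in Rps27rt and 0.51 in Rps4x to 1.02 in Rpl22l1. Within the 76 members with a site, width followed CpG content only loosely, with Pearson's r = 0.17 and Spearman's rho = 0.16 between the CpG ratio and the width. With gene length, Pearson's r was -0.01 and Spearman's rho -0.15. These are correlations across genes of 1 pooled list, which are not replicates.

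**Figure D3:**
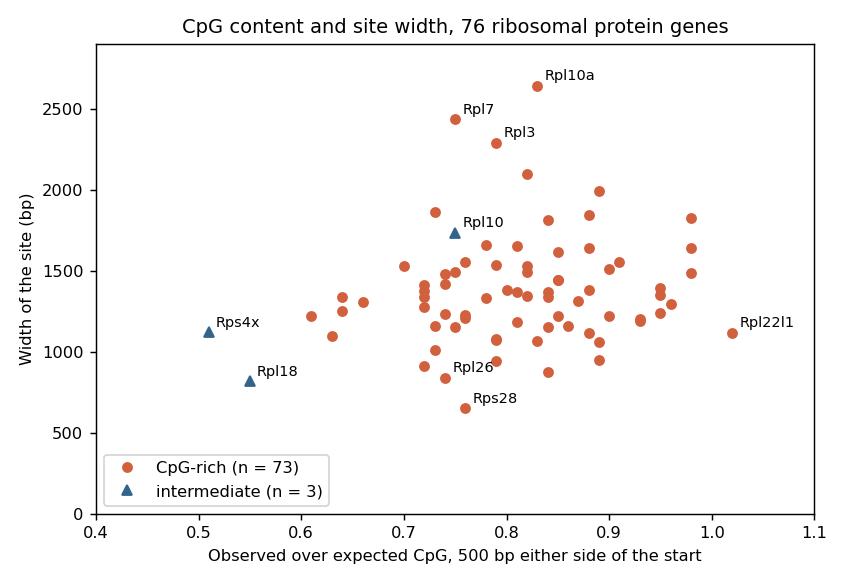
Each point is 1 of the 76 ribosomal protein genes with a site, with the observed to expected CpG ratio around its start on the horizontal axis and the width of its site in bp on the vertical axis. Circles are CpG-rich and triangles intermediate genes, and the widest and narrowest sites stand at ratios between 0.55 (Rpl18) and 0.83 (Rpl10a).

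Most members had a single site at their starts. Of the 77 genes, 64 had 1 site, and 12 (15.6%, interval 9.15 to 25.3%) had 2 or more, beside 21.7% of all protein-coding genes, a share within the interval of the members. The share was 10.3% in mitochondrial ribosomal protein genes and 10.7% in CpG-rich genes no longer than 5 kb. Counted within 3 kb in place of 1 kb, it was 54.5% in the members and 39.5% over all protein-coding genes, so that the direction of the difference turned with the window. Rpl3 and Rps14 had the most, with 4 each. In both, the annotation also holds remote starts, and the additional sites of Rpl3 included a site of 850 bp whose middle lay at -7863.5 bp from its main start, that is upstream, near a start of Syngr1. Rpl11, Rpl18, Rpl41, Rps18, Rps24 and Rps4x also had additional start sites. Those of Rpl18, Rpl41, Rps18 and Rps24 lay within 1 kb of a start of Sphk2, Zc3h10, B3galt4 and Polr3a, respectively. The additional site of Rps4x, 192 bp wide, lay 2077.5 bp downstream of its main start and near no start of another gene.

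Few members had sites over the gene body away from the starts, where overlap with the gene at any base was counted. Such a site was found in 11 of 77 genes (14.3%, interval 8.17 to 23.8%), beside 52.7% of all protein-coding genes and 63.6% of CpG-rich genes. In CpG-rich genes no longer than 5 kb, however, the share was 8.72% (interval 7.31 to 10.4%), and the 11 members with such a site had a median length of 8500 bp, beside 3170 bp in the other 66. Low shares of body sites thus stood beside short genes, and the part of gene length was measured only by this stratum. Rpl11 had 4 body sites, 308 to 1310 bp wide. Rps14 had 3, Rpl26 had 2, and Rpl10a, Rpl22, Rpl3, Rpl5, Rpl7l1, Rps15a, Rps19bp1 and Rps20 had 1 each. The site of Rpl5, 1884 bp wide with its middle 9360.5 bp downstream, and that of Rpl10a, 1589 bp wide at 3182 bp, were wider than the median site at a member's start. Both overlapped only the downstream end of the gene, and their middles lay beyond it. The same was so for the body site of Rpl7l1.

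Around the genes, distal sites were not few. Counting sites at least 1 kb from every annotated start, a distal site lay 1 to 10 kb from the main start in 57 of 77 members, and 20 (26.0%, interval 17.5 to 36.7%) had none. Over all protein-coding genes 46.5% had none, among CpG-rich genes 40.9% and among mitochondrial ribosomal protein genes 44.9%. It was 38.5% in CpG-rich genes no longer than 5 kb and 37.5% in proteasome genes. Among the 14 genes of translation factors with pyrimidine starts 21.4% had none, a share within the interval of the members. The mean number was 1.52 in the members and 0.984 in CpG-rich genes. At 10 to 50 kb, 0 of 77 members lacked a distal site (interval 0 to 4.75%), beside 13.8% of all protein-coding genes. The share was 4.31% in CpG-rich genes and 3.85% in mitochondrial ribosomal protein genes, both within the interval of the members, and the mean numbers were 6.13 in the members and 5.55 in CpG-rich genes. A median of 3 other protein-coding genes started within 50 kb of a member. The median was 2 over all protein-coding and over CpG-rich genes, 3 in mitochondrial ribosomal protein, proteasome and respiratory chain genes and 4 in CpG-rich genes no longer than 5 kb. The part of gene density in the number of distal sites was not tested.

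**Figure D4:**
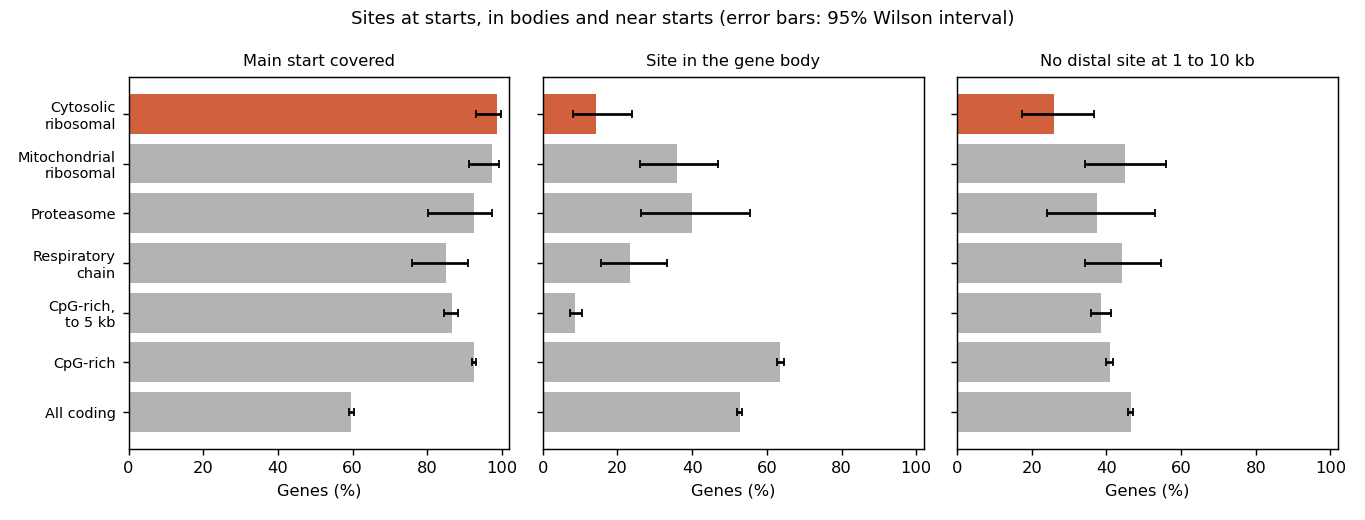
Bars give the percentage of genes in 7 lists whose main start was covered by a site, that had a site in the gene body beyond 1 kb of their starts, and that had no distal site at 1 to 10 kb from the main start, with 95% Wilson intervals. For the ribosomal protein genes, in orange, these were 98.7%, 14.3% and 26.0%.

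Sites at the starts of members were next examined for starts of other genes. In 34 of 77 (44.2%, interval 33.6 to 55.3%) the site at the main start also covered a start of another gene, beside 17.7% of all protein-coding genes and 31.6% of CpG-rich genes. The share was 48.7% in mitochondrial ribosomal protein genes and 38.1% in CpG-rich genes no longer than 5 kb, both within the interval of the members. In 11 of the 34 the other starts all belonged to small RNA genes, mostly small nucleolar RNA genes within the member itself. A start of another protein-coding gene was covered in 15 members (19.5%, interval 12.2 to 29.7%), beside 11.0% of all protein-coding genes and 19.8% of CpG-rich genes, and so stood near the level of the CpG-rich class. Mitochondrial ribosomal protein genes, at 42.3% (interval 32.0 to 53.4%), lay above. The protein-coding partners were Rdh10 (Rpl7), Med22 (Rpl7a), Lrsam1 (Rpl12), Arpc5l (Rpl35), Rab13 (Rps27), Lias (Rpl9), Sphk2 (Rpl18), Trappc4 (Rps25), Zwilch (Rpl4), Clhc1 (Rps27a), Nkiras1 (Rpl15), Iqcg (Rpl35a), Ndufa7 (Rps28), Vps52 (Rps18) and, for Rps10, a readthrough model that contains it. Oppositely directed protein-coding starts within 1 kb upstream were found at 11 members (14.3%), beside 9.08% of all protein-coding genes and 15.8% of CpG-rich genes.

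Within the spans of 28 of the 77 genes lay 55 genes of the annotated class of small nucleolar RNAs, counted on either strand. Of these, 11 were overlapped by a site, in each case the site at the main start of the member. The overlap was counted for these 55 only. The 11 lay near the start, among them Snord42b in Rpl23a, 460 bp downstream, Snord68 in Rpl13, at 688 bp, and Snord15a in Rps3, at 806 bp. Snora78 is among the 11 but lies at -387 bp from the main start of Rps2 and runs in the opposite direction. Rpl4 hosted 5 such genes, of which 0 were overlapped. Snord43, which lies within Rpl3 and under the site at its main start, is annotated as a miRNA gene and was not counted among the 55.

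Copies of the members differed from their parents. Of 290 pseudogenes with symbols of the same form, 38 had a site no farther than 1 kb from a start (13.1%, interval 9.70 to 17.5%), beside 11.2% of all 10236 processed pseudogenes. In 3 of the 290 (1.03%) the site covered the main start, beside 2.73% of all processed pseudogenes. The 3 were Rpl7a-ps8, Rpl9-ps3 and Rpl29-ps2, the last under the same site as a start of Akr1e1. The median CpG ratio around the 290 starts was 0.36. Among protein-coding genes left out by the rule, 0 of 6 with -ps in the symbol had a covered start. Of 5 that end in l, Rps27l (site of 1405 bp) and Rpl36al (1757 bp) did, whereas Rpl10l, Rpl39l and Rpl3l, which are known from testis or muscle, had no site within 1 kb of a start. Rps27rt resembled the pseudogenes in that it had 1 exon, no site and a CpG ratio of 0.41. Reads that map equally well to a parent and a copy could have been lost or split. The authors removed reads that ENCODE guidance counts as unusable, and whether these included reads with several matches is not given in the sources used here.

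The members of known roles listed in this paragraph had sites from 1150 to 2095 bp wide. Rpl5 and Rpl11, which bind 5S ribosomal RNA, had sites of 1185 and 1309 bp. Rpl4 and Rpl39, which line the exit tunnel for the new protein, had 1556 and 1222 bp. Rps2, Rps3 and Rps23, near the path of the messenger RNA and the decoding site, had 1220, 1346 and 1162 bp, and Rps6 had 1352 bp. Among the model promoters, Rpl30 had 1812 bp, Rpl32 1160 bp and Rps16 1333 bp. Rpl38, Rps25 and Rpl22, studied for their effect on particular messenger RNAs, had 2095, 1378 and 1150 bp. The sites of Rpl38 and Rpl30 were the widest of these.

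The sequence around the main start was examined in all 77 members, whether or not a site was there. A run of at least 10 C and T on the coding strand within 100 bp of the main start was present in 52 of 77 members (67.5%, interval 56.5 to 76.9%), beside 31.2% of all protein-coding genes and 28.3% of CpG-rich genes. On the other strand the share was 28.6% in the members (interval 19.7 to 39.5%), beside 32.6% of all protein-coding genes and 28.5% of CpG-rich genes. The share of the members thus exceeded that of CpG-rich genes on the coding strand and not on the other. The longest run of C and T had a median of 11 bases in the members and 8 in CpG-rich genes, and was longest in Rps10, with 30 bases. Mitochondrial ribosomal protein genes had such a run in 25.6% (interval 17.3 to 36.3%), and 7 of 14 genes of translation factors with pyrimidine starts had it. The first base was a C in 26 of 77 members (33.8%), beside 17.5% of all protein-coding genes and 18.1% of CpG-rich genes. Annotated starts may lie some bases from the start used in cells. With the nearest RefSeq start, chosen after seeing the data, the runs were present in 50 of 58 members (86.2%), beside 31.6% of all protein-coding genes with a RefSeq start, as in the stretches of Rps6 and Rpl38 printed above.

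Short motifs were searched on both strands in 250 bp before to 50 bp after the main start. The ETS-type core CGGAAG was present in 44 of 77 members (57.1%, interval 46.0 to 67.6%), beside 20.6% of all protein-coding genes and 32.3% of CpG-rich genes. Mitochondrial ribosomal protein genes had it in 57.7% and proteasome genes in 55.0%. The palindrome CTCGCGAG was present in 9 members (11.7%, interval 6.27 to 20.7%), beside 1.19% of all protein-coding genes and 2.25% of CpG-rich genes. It was present in 3.85% of mitochondrial ribosomal protein genes (interval 1.32 to 10.7%) and 5.00% of proteasome genes (interval 1.38 to 16.5%). Both intervals overlapped that of the members. The 9 members included Rpl4, Rpl10a, Rpl17, Rpl26, Rpl27a, Rps6 and Rps28. Rps19 was not among the 9, although the stretch at its RefSeq start printed above holds the palindrome, because its main start lies upstream of that start. The sites of the 9 genes had a median width of 1350 bp, beside 1338 bp over all members.

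The GC box GGGCGG was present in 51.9% of the members (interval 41.0 to 62.7%), beside 70.9% of CpG-rich genes, 48.7% of mitochondrial ribosomal protein genes and 39.5% of respiratory chain genes. CCAAT was present in 27.3% (interval 18.6 to 38.1%), which takes in the 37.2% of CpG-rich genes. The TATA box TATAAA was found in 11.7% of the members (interval 6.27 to 20.7%), beside 6.24% of CpG-rich genes. It was found in 12.8% of respiratory chain genes, 12.5% of proteasome genes and 11.5% of CpG-rich genes no longer than 5 kb. The E-box CACGTG was found in 10.4% of the members, beside 10.6% of CpG-rich genes. ATGGCG, the core bound by YY1, was found in 27.3% of the members (interval 18.6 to 38.1%) and 16.4% of CpG-rich genes. Mitochondrial ribosomal protein genes, at 32.1%, and proteasome genes, at 32.5%, lay within the interval of the members. Over all protein-coding genes, the shares were 45.3% for GGGCGG, 38.6% for CCAAT, 12.6% for TATAAA, 7.72% for CACGTG and 10.7% for ATGGCG. The letters of GGGCGG and CGGAAG can overlap by CGG. A match describes these letters in the window and does not show that a factor is bound.

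**Figure D5:**
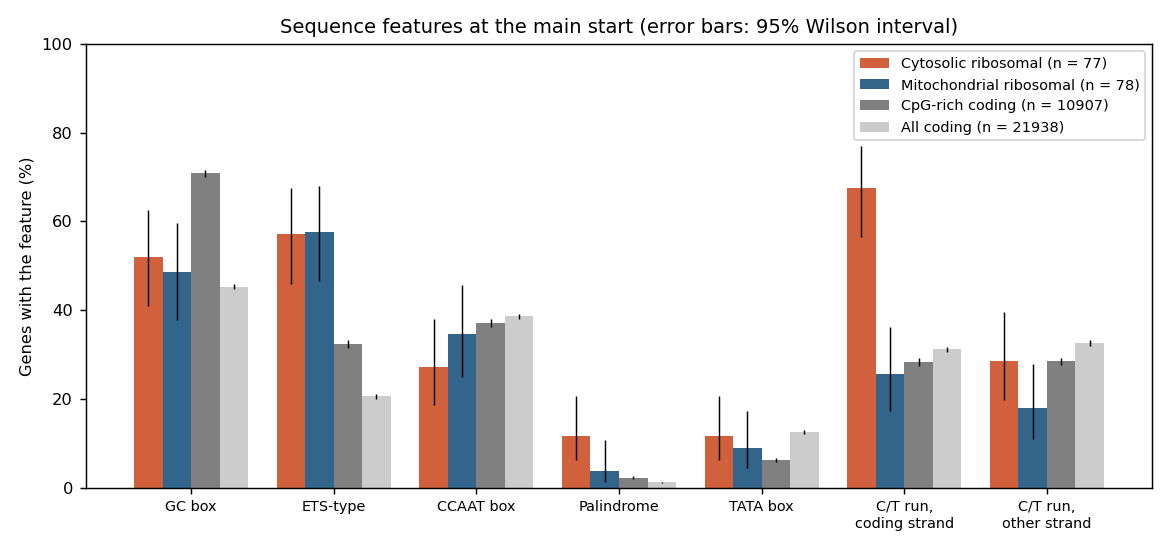
Bars give the percentage of genes whose start region holds each of 5 motifs (250 bp before to 50 bp after the main start, both strands) or a run of at least 10 C and T within 100 bp on the coding or the other strand, for 4 lists with 95% Wilson intervals. The GC box is GGGCGG, the ETS-type core CGGAAG and the palindrome CTCGCGAG. The run on the coding strand, at 67.5% in ribosomal protein genes and 25.6% in mitochondrial ribosomal protein genes, is the feature in which these lists lie farthest apart.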

How the data were processed

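The authors made the deposited list from ATAC-seq reads of 10 libraries. Per their methods they trimmed the reads, aligned them to mm10 with BWA, merged replicates and called narrow peaks with MACS2, and the submitters' processing notes also name SAMtools, deepTools and DESeq2. The extraction text in the labels describes formaldehyde cross-linking, as for chromatin immunoprecipitation, whereas the methods describe ATAC-seq on lysed cells, and the methods were followed here. Versions, the peak threshold, any shift for the Tn5 cut and the joining of samples are not given in the sources used here, and each could change the number and the edges of sites. The deposited values are positions (chromosome, start, end), with no count, score or signal per library, and whole-genome depth cannot be given.

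Starts were taken to be 0-based and ends to be open, and printed positions are 1-based. Of the 153924 sites, 153682 lay on chromosomes 1 to 19, X and Y and 0 beyond a chromosome end of GRCm38. Genes and starts came from GENCODE vM21. The main start was the most 5′ start among transcripts with the best APPRIS principal level and then the best support level. A site at a start covered it or was the nearest within 1 kb. CpG-rich starts had a window of 500 bp within 1 kb with a GC share over 0.55 and a CpG ratio over 0.75, and CpG-poor starts had no window with a ratio over 0.48. The comparison lists were chosen by symbol. Named genes followed a fixed rule, which took genes without a site, the 3 extremes of width and offset at either end, genes with 2 or more start sites or with body sites, and genes of known roles. A few genes that this rule would name are not reported by name here. The members and lists were chosen with earlier results of these data known, and the class of short CpG-rich genes was added after seeing the data. No test was run, since the list has no replicates, and genes are described by counts, medians and 95% Wilson intervals. The finding of a site at a start, its width, reach and offset, and the CpG classes were tested on simulated data. The other measuring steps were not. Python 3.11.15, NumPy 2.4.6, SciPy 1.17.1, pandas 2.3.3, pysam 0.24.0 and Matplotlib 3.10.9 were used.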

Additional observations from a re-analysis of the deposited data

How the results depend on the processing

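No paired analysis was possible because the positions belong to all libraries together. Of 37 alternative values, 26 lay within the 95% interval of the value reported and 11 moved outside it. Only the offset could change sign, since shares and widths cannot be negative, and it did not. Every site at the main start of a member covered that start. Keeping only covering sites therefore could not change the width or the offset. A site at a start was found at 98.7% of members with 500 bp, 3 kb, the main start only or the wider sites only (those not below the median width). Without the 3 genes that are not ribosomal proteins by name, it was 98.6% of 74 members. Leaving out Rps27rt as well, a setting chosen after seeing the data, gave 100% of 73 members. That value was fixed by the choice, since Rps27rt was the only member without a site. The looser CpG class, with windows of 200 bp, took in 100% of members and 68.1% of all protein-coding genes. With 3 kb in place of 1 kb, 54.5% of members had 2 or more sites at starts (39.5% of all protein-coding genes), 7.79% a body site (45.4%) and 54.5% a distal site within 10 kb (39.5%). This reverses the order for 2 or more start sites, of which members had fewer than all protein-coding genes at 1 kb. With these wider sites, 9.09% had 2 or more sites at starts, 57.1% a distal site within 10 kb and 92.2% a distal site at 10 to 50 kb, beside 12.9%, 30.0% and 74.2% of all protein-coding genes. Counting protein-coding partners only, 19.5% of members shared a site. With RefSeq starts, chosen after seeing the data, 86.2% of 58 members had the run of C and T. A run of 5 or more lay across the start in 29.3% of these 58, beside 8.68% of all protein-coding genes with a RefSeq start. With the main start it was 15.6% of 77 members, beside 9.65% of all protein-coding genes and 16.3% of respiratory chain genes. The member values thus cover different sets of genes. With RefSeq starts the median middle of the site lay 19.0 bp downstream. The depth of the libraries is unknown, so that the absence of a site, as at Rps27rt, says only that none was listed.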
